A study of Mus musculus with 7 samples.

Results

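The erythroid lineage genes described here encode the regulators, globins, haem enzymes, membrane skeleton and blood group proteins with which blood progenitors become red cells. They were followed in long-term haematopoietic stem cells (LT-HSCs) sorted from mice without Emcn, which encodes the surface sialomucin endomucin. The members were 30 named genes, looked up by symbol in the deposited table of 54347 genes. Symbols in the table matched 28 of them. The row with identifier ENSMUSG00000052305.6 is named Hbb-b1 in the table and Hbb-bs in GENCODE M21, and it was taken as Hbb-bs by its identifier. Ahsp, which encodes the chaperone of alpha globin, was not analysed here. All 29 members found passed the filter on low counts, among 15372 genes that did.

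Libraries came from the marrow of 3 Emcn-/- mice (KO: ko_306, ko_314 and ko_320) and 4 Emcn+/+ littermates (WT: wt_284, wt_290, wt_310 and wt_312), each named by genotype and mouse number. All mice were female, untreated as far as the labels say, and carried the background C57BL/6N-EMCN em1(IMPC)Wtsi /WtsiH, with no age stated in the labels. The series title ties Emcn to quiescent stem cells and their migration through endothelium, and its design sets Emcn-/- against Emcn+/+ cells, with 3000 to 5000 cells of 1 mouse in a replicate. The allele is carried in the germ line, as the strain name reads, and the labels do not say which exons it removes. The cells were depleted of lineage-positive cells, stained among others for Ter119, an antigen of erythroid cells, and sorted.

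Library totals ran from 6648881 to 11101774 counts in KO and from 6444134 to 10322741 in WT. Emcn held 1, 0 and 0 counts in KO libraries and 130, 327, 223 and 216 in WT libraries, and it was the 1 gene of 15372 that passed the edgeR quasi-likelihood test at an adjusted p below 0.05. All 13 stem cell markers looked up had counts in every library, with a summed level of 2454 to 2684 CPM in KO and 1616 to 2751 CPM in WT, where wt_284 was the lowest. CPM are counts scaled to library size, with TMM factors. wt_284 had the highest level of most erythroid genes, and their fold changes are given with and without it.

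Red cell formation runs from stem cells through committed progenitors that depend on erythropoietin to haemoglobin-filled erythroblasts. The transcription factor GATA1 binds the GATA motif and KLF1 binds CACCC boxes, and together they switch on globin, haem and membrane genes. Some members, such as Gata1, Gfi1b and the iron sensor gene Tfr2, are also used by stem cells or megakaryocytes, whereas globins, Slc4a1 and spectrin mark late erythroblasts. On this textbook basis 12 members were called early, 14 late and 3 neither. The early members were Klf1, Gata1, Gfi1b, Epor, Tfr2, Tfrc, Car1, Car2, Aqp1, Blvrb, Ermap and Icam4. Hemgn, Urod and Cpox were neither.

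Stretches before the start of 7 members are shown because these genes span the roles described below and carry motifs of one factor or the other, or a general promoter box. Sequences are from RefSeq (GRCm38.p6), on the strand of the gene, and end before both the RefSeq and the GENCODE M21 start. Capitals mark matches on either strand to the GATA motifs AGATAA or else TGATAA, to the KLF1 box CACCC and to the general promoter box CCAAT. Klf1 is shown at chr8:84901808-84901927 (plus strand), Epor at chr9:21963577-21963696 (minus), Hbb-bt at chr7:103813997-103814116 (minus), Hba-a2 at chr11:32296369-32296488 (plus), Trim10 at chr17:36869454-36869573 (plus), Rhd at chr4:134864416-134864535 (plus) and Sptb at chr12:76710548-76710667 (minus).
Klf1: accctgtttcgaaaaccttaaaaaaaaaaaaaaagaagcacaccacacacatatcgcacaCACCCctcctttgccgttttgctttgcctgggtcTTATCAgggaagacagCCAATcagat
Epor: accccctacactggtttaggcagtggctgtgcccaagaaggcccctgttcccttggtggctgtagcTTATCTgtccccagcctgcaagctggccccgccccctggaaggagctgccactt
Hbb-bt: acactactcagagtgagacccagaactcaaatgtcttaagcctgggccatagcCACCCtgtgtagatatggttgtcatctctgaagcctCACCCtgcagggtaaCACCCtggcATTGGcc
Hba-a2: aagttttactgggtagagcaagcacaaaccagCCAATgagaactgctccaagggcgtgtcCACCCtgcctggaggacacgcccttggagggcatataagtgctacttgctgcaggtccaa
Trim10: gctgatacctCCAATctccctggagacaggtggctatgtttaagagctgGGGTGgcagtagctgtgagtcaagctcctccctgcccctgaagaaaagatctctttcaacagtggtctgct
Rhd: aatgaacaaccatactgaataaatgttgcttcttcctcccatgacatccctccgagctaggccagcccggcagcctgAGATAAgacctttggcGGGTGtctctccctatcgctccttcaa
Sptb: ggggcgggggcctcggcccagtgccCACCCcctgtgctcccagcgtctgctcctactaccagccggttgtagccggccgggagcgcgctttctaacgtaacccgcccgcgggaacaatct

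In the whole RefSeq windows of 300 bases, AGATAA, or else TGATAA, was found on either strand for 57.1% of 28 member windows, which cover 24 genes, and for 18.6% of all 32851 windows. CACCC was found in 92.9% of member windows and 57.5% of all windows. CCAAT was found in 46.4% of member windows and 37.4% of all windows. The GATA motifs differ in their first letter only, and no motif here says that a factor is bound.

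No erythroid member passed the test between KO and WT, although most had lower values in KO. Of 29 members 0 were called (background 0.00651% of genes tested), with an adjusted edgeR p of 0.992 for each. The log2 fold change, KO minus WT, was negative for 28 members, against 52.4% of all genes, and below -1 for 20, against 6.94%. The member median was -1.57, and the median of all genes was -0.02. An unadjusted p under 0.05 was reached by 5 members, all lower in KO (Trim10, Cpox, Fech, Hbb-bt and Blvrb), against 1.99% of all genes, and by 0 that were higher in KO, against 1.28%. Every KO library lay below every WT library for 3 members (Epor, Blvrb and Hbb-bt), with a background of 2.43%. Leaving out wt_284 cannot make these groups overlap, and it added no further member (background 3.62%).

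Leaving out wt_284 brought most fold changes closer to 0. Without wt_284 the member median was -0.77, against 0.00 over all genes, 24 members were negative (background 49.9%) and 13 were below -1 (background 4.18%). Again 0 were called (background 0.0201%, smallest adjusted p 0.999), and 4 had an unadjusted p under 0.05 and lower KO values (background 1.03%). That last count was 19 without wt_312 (background 4.04%), 5 without wt_290 (background 2.11%), 2 without wt_310 (background 2.07%), 1 without ko_306 (background 3.69%), and 0 without ko_314 (background 1.04%) or ko_320 (background 0.879%). It was 18 with DESeq2 (background 2.5%) and 12 with limma-voom, run with quality weights for each library (background 1.49%). It was 16 in a fit that is not robust (background 2.97%) and 5 with no filter on low counts (background 3.74%). The DESeq2 and no-filter backgrounds are over 29739 genes with any count, including low-count genes that the other fits left out. At an adjusted p below 0.05, 0 members were called with DESeq2 (background 0.0404%), with limma-voom (background 0.0%) or without wt_290 (0.0135%), ko_306 (0.0185%), wt_310 (0.00658%), wt_312 (0.00656%), ko_314 (0.0122%) or ko_320 (0.00615%). The labels do not name a batch or sort day.

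**Figure D1:**
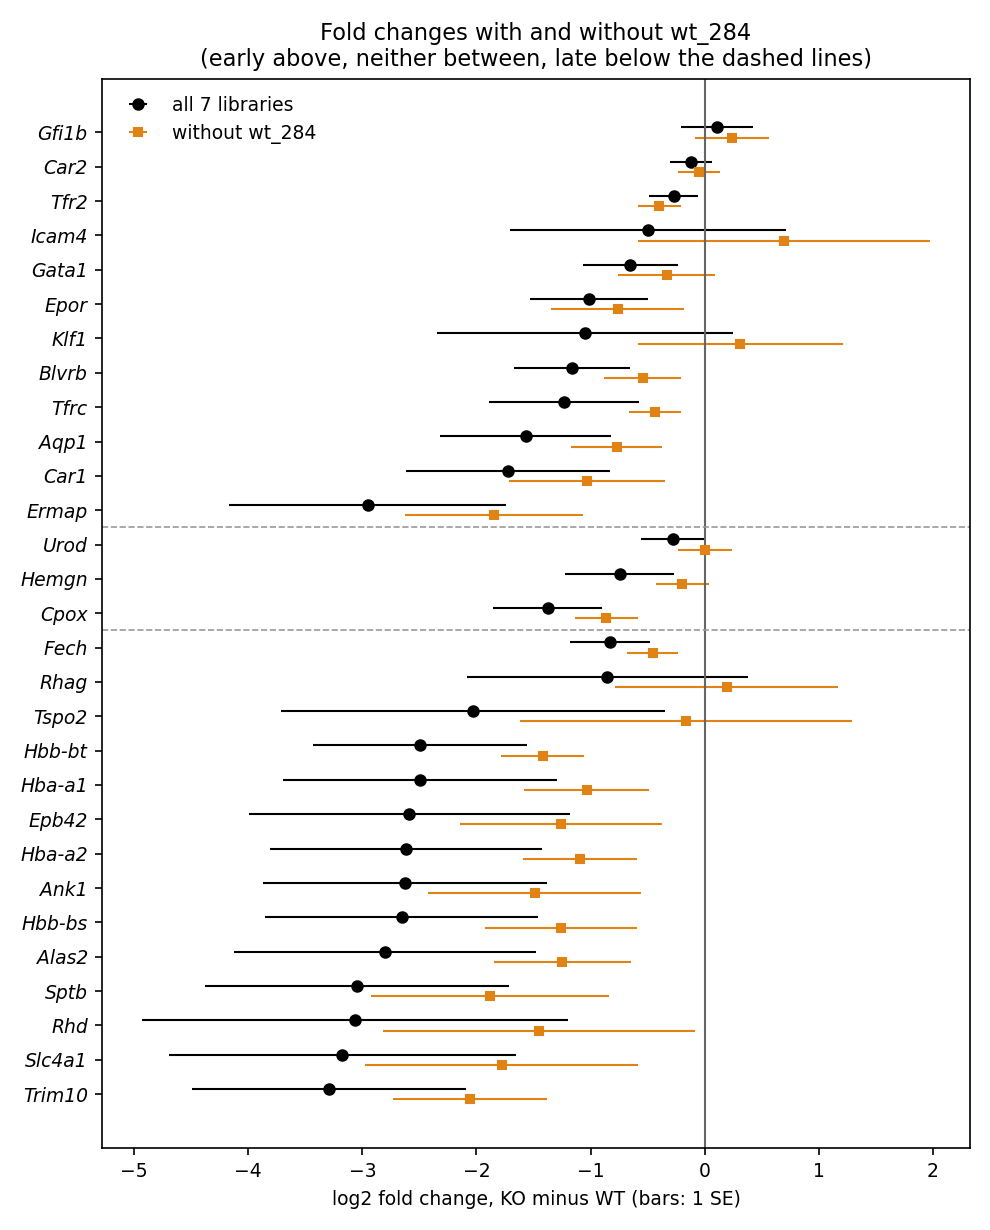
Log2 fold change between KO and WT (x axis, bars 1 SE) of each of the 29 members (y axis) from 7 libraries (black circles) and without wt_284 (orange squares). The 14 late genes had values from -3.29 to -0.83 with all libraries; without wt_284 Klf1, Rhag, Icam4, Gfi1b and Urod lay at or above 0.

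Libraries of 1 genotype differed widely in these genes. wt_284 was the highest of the 7 libraries for 26 of 29 members, against 23.1% of all genes, the exceptions being Gfi1b, Car2 and Tfr2. It was over 2 times the median of the other WT libraries for 23 members (background 11.6%), and for 5 it was the highest WT library and stood apart from the others by Dixon's criterion (background 3.57%). Over all genes, any WT library at either end stood apart in 8.7%. wt_312 was the lowest WT library for 25 members (background 32.9%), lay within the KO range for 12 (background 44.2%) and below every KO library for a further 12 (background 28.1%). The other WT libraries, wt_284, wt_290 and wt_310, were all above every KO library for 21 members (background 7.14%). Within KO, ko_306 was the highest library for 14 members (background 31.3%) and ko_314 the lowest for 19 (background 34.1%). In bulk samples fewer cells of a type and less RNA per cell cannot be told apart.

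**Figure D2:**
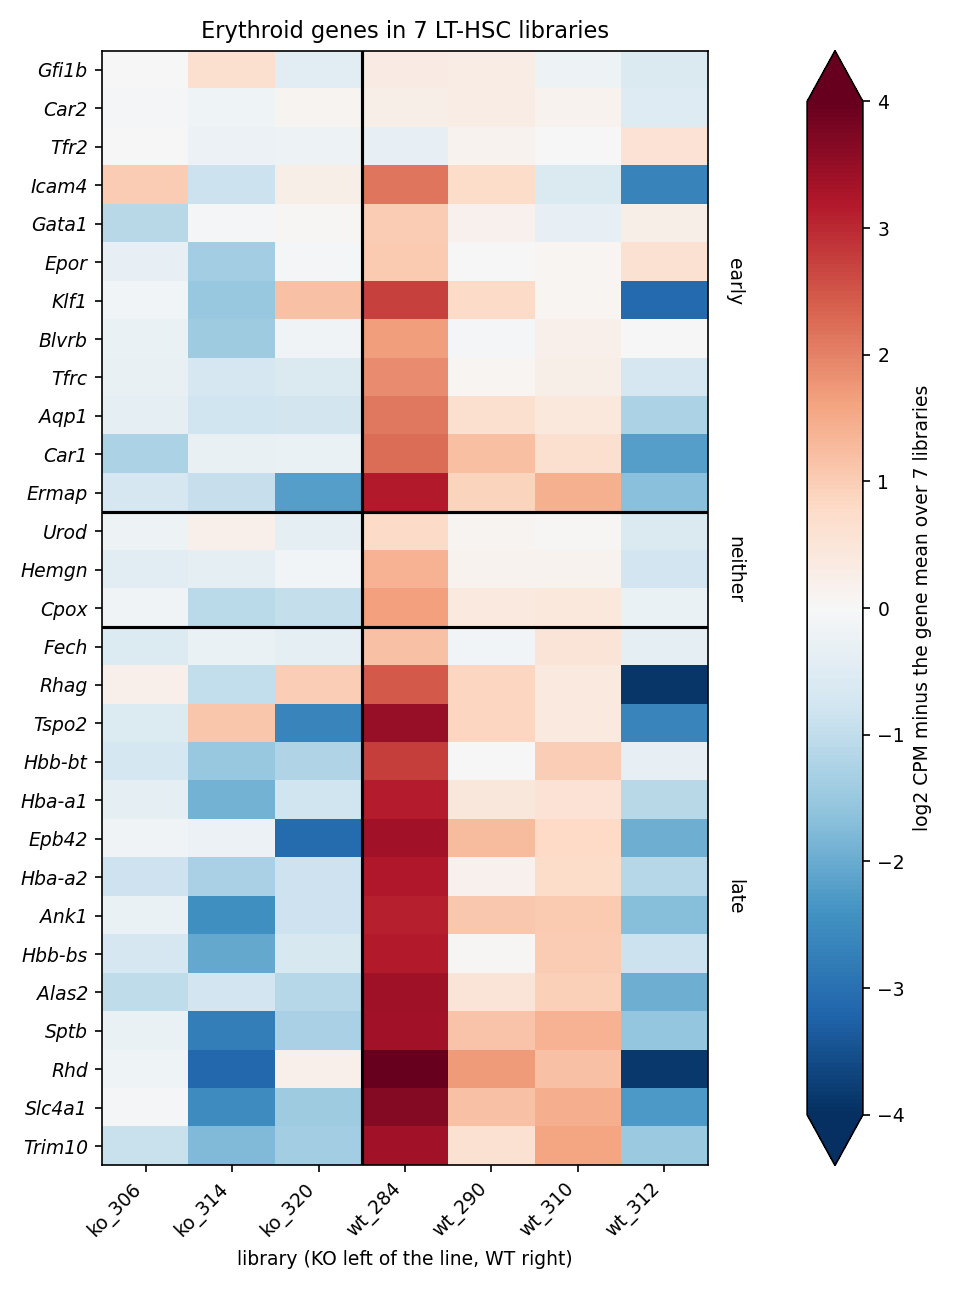
Heat map of log2 CPM of each member (rows, grouped as early, neither and late) in 3 KO and 4 WT libraries (columns), relative to the mean of the gene over the 7 libraries. wt_284 is the highest library for 26 of 29 members, and wt_312 the lowest WT library for 25.

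As lists, late genes had the wider spread between libraries, but early members were mixed. The ratio of wt_284 to the median of the other WT libraries ran from 0.711 to 8.41 over early members. Over late members it ran from 2.46 to 9.59. The medians were 3.13 for early and 6.64 for late members. Both upper ends rest on few counts in wt_290, wt_310 and wt_312: 24, 5 and 0 for Icam4 (early), and 26, 11 and 0 for Tspo2 (late). The mean log2 CPM of the 14 late members stood at 4.13, 3.11 and 3.54 in ko_306, ko_314 and ko_320, against 7.69, 5.27, 5.50 and 2.78 in wt_284, wt_290, wt_310 and wt_312. By this mean wt_312 was below all KO libraries and the other WT libraries were above them. The mean of wt_312 includes Rhd and Tspo2 at 0 counts and Rhag at 1 count, entered as -2.08, -2.08 and -1.46 log2 CPM. Among KO libraries, Rhd had 1 count in ko_314 and Tspo2 0 in ko_320. As summed CPM of the late members, wt_312 lay inside the KO range, with 358 against 266 to 479. The mean of the 12 early members was 4.05, 3.70 and 4.09 in the same KO libraries, and 5.87, 4.77, 4.52 and 3.40 in the WT libraries, in the same order. The order of the groups was like that of late genes, over a smaller range.

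Late members exceeded early ones by 0.07 in ko_306, and lay below them by -0.59 in ko_314 and -0.55 in ko_320. In WT the late minus early difference came to 1.83, 0.50 and 0.98 in wt_284, wt_290 and wt_310, and to -0.63 in wt_312. The KO mean of this difference was -0.35 ± 0.37 (SD, n = 3) and the WT mean 0.67 ± 1.02 (SD, n = 4), or 0.29 ± 0.83 without wt_284. The late level was 3.59 ± 0.51 in KO and 5.31 ± 2.01 in WT (SD), or 4.52 ± 1.51 in WT without wt_284, and the early level was 3.95 ± 0.21 in KO and 4.64 ± 1.01 in WT, or 4.23 ± 0.73. The KO ranges lay within the WT ranges for the late level, the early level and their difference. The median member log2 fold change was -2.62 for late and -1.03 for early genes, or -1.26 and -0.42 without wt_284. All 14 late members were highest in wt_284 and had their WT minimum in wt_312, which held for 9 and 8 of the 12 early members. KO minus WT, the late minus early difference was -1.02, and -0.87 without the globin genes, Car2, Tfr2 and Tfrc. These are descriptions of lists, without a test.

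**Figure D3:**
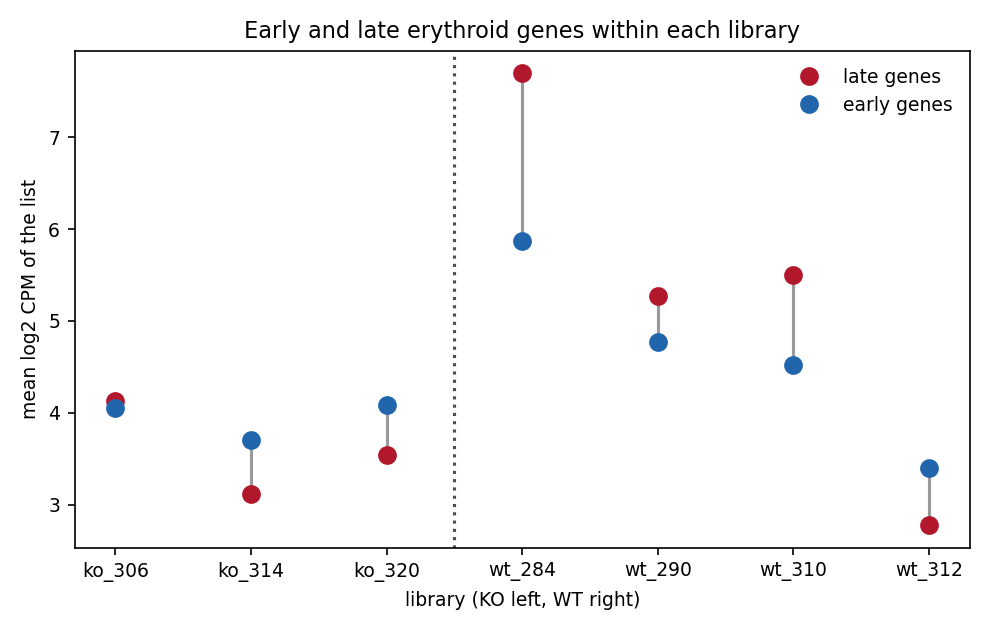
Mean log2 CPM (y axis) of the early members (blue) and late members (red) in each library (x axis, KO left, WT right), with a grey line joining the pair. Late genes lie above early genes in wt_284, wt_290 and wt_310, by 0.50 to 1.83, and below them in wt_312, ko_314 and ko_320, with differences of -0.63 to -0.55.

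Among the regulators, Klf1, Gata1 and Gfi1b had overlapping values in KO and WT libraries. Klf1 (ENSMUSG00000054191.9, chromosome 8, 84901928 to 84905291 on the plus strand of GRCm38) encodes the KLF1 activator of globin and membrane genes. It had 4.74, 1.64 and 11.7 CPM in ko_306, ko_314 and ko_320, against 35.4, 8.78, 5.35 and 0.385 CPM in wt_284, wt_290, wt_310 and wt_312, the last resting on 3 counts. ko_320 was above every WT library but wt_284, and the groups overlapped. The log2 fold change was -1.05 ± 1.30 (SE), and it turned to 0.31 ± 0.90 without wt_284.

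Gata1 (chromosome X, 7959260 to 7978071, minus strand), the master factor of erythroid and megakaryocyte differentiation, stood at 5.42, 11.5 and 12.4 CPM in ko_306, ko_314 and ko_320, against 24.2, 13.3, 9.48 and 14.0 CPM in wt_284, wt_290, wt_310 and wt_312. The groups overlapped, with wt_284 the highest and ko_306 the lowest. Its log2 fold change was -0.65 ± 0.42 (SE), or -0.33 ± 0.43 without wt_284. Gfi1b, a zinc finger repressor of erythroid and megakaryocyte cells that stem cells also express, had 25.4, 40.1 and 18.6 CPM in the KO libraries and 32.6, 31.4, 22.5 and 17.2 CPM in the WT libraries. The highest library was ko_314, and the log2 fold change of 0.11 ± 0.32, or 0.24 ± 0.32 without wt_284, was the 1 positive value among the members with all libraries.

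Hemgn encodes hemogen, a nuclear protein of blood progenitors, and had 53.7 to 67.4 CPM in KO and 42.6 to 191 CPM in WT. With wt_312 below every KO library, its log2 fold change was -0.74 ± 0.48, or -0.20 ± 0.23 without wt_284. Trim10, a tripartite motif protein needed for terminal erythroid differentiation in mouse, had 4.05, 2.09 and 2.80 CPM in ko_306, ko_314 and ko_320, against 81.1, 11.9, 23.2 and 2.57 CPM in wt_284, wt_290, wt_310 and wt_312. wt_312 lay inside the KO range and the other WT libraries above it. Trim10 had the most negative log2 fold change of the members, -3.29 ± 1.20 (unadjusted edgeR p 0.0332), and -2.05 ± 0.67 without wt_284.

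Receptors and iron uptake genes differed from each other. Epor (chromosome 9, 21958897 to 21963506, minus strand) encodes the erythropoietin receptor that keeps committed progenitors alive. It had 4.91, 2.24 and 5.99 CPM in the KO libraries and 13.1, 6.23, 6.57 and 9.63 CPM in the WT libraries. Every KO library was below every WT library, by a small margin between ko_320 and wt_290, and unlike most members Epor was not lowest in wt_312 among WT. The log2 fold change was -1.01 ± 0.52 (SE), or -0.76 ± 0.58 without wt_284, at an adjusted edgeR p of 0.992 and 0.999.

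Tfrc, the transferrin receptor that takes up iron, had 62.3, 48.8 and 51.3 CPM in the KO libraries, against 289, 81.6, 90.6 and 48.3 CPM in the WT libraries. wt_312 lay below the KO libraries and the other WT libraries above them, and the log2 fold change of -1.23 ± 0.66 was -0.44 ± 0.23 without wt_284. Tfr2, which senses transferrin-bound iron and partners the erythropoietin receptor, had 72.8, 60.7 and 62.4 CPM in the KO libraries and 56.5, 79.4, 72.7 and 107 CPM in the WT libraries. Its order was turned round within WT, with wt_284 the lowest of all libraries and wt_312 the highest. Its log2 fold change was -0.27 ± 0.21, and -0.40 ± 0.19 without wt_284.

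The adult globin genes made up 0.0244% ± 0.00769 of counts in KO (SD, n = 3) and 0.136% ± 0.162 in WT (SD, n = 4), or 0.0563% ± 0.0312 in WT without wt_284. By library the share came to 0.0310%, 0.0159% and 0.0262% in ko_306, ko_314 and ko_320, against 0.377%, 0.0543%, 0.0885% and 0.0262% in wt_284, wt_290, wt_310 and wt_312. wt_284 held more than the other 6 libraries together, and wt_312 was at the level of ko_320.

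Hba-a2 (chromosome 11, 32296489 to 32297298, plus strand), which encodes adult alpha globin, had 113, 80.7 and 112 CPM in the KO libraries, against 1843, 224, 336 and 91.4 CPM in the WT libraries. Its neighbour Hba-a1 had 43.8, 15.1 and 32.2 CPM in KO and 501, 77.5, 84.1 and 26.3 CPM in WT. For both genes wt_312 lay inside the KO range, and the log2 fold changes of -2.62 ± 1.19 and -2.50 ± 1.20 were -1.09 ± 0.50 and -1.03 ± 0.55 without wt_284.

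Hbb-bs (chromosome 7, 103826534 to 103828096, minus strand), which encodes adult beta globin, had 90.7, 34.4 and 91.6 CPM in KO and 1300.3, 149, 293 and 78.6 CPM in WT. Hbb-bt, the neighbouring beta gene (103812524 to 103813996, minus strand), had 49.0, 27.7 and 34.3 CPM in KO and 537, 77.5, 158 and 62.8 CPM in WT. Hbb-bt was the globin gene whose groups did not overlap, and wt_312 lay inside the KO range for Hbb-bs. The log2 fold change was -2.49 ± 0.94 for Hbb-bt and -2.65 ± 1.20 for Hbb-bs, or -1.42 ± 0.36 and -1.26 ± 0.67 without wt_284.

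How counts are divided within each globin pair is uncertain, because the copies share much of their sequence. Of the 31-base words in the Hba-a2 transcripts of GENCODE M21, 91.0% also occur in Hba-a1, and 71.3% of those in Hba-a1 occur in Hba-a2. For the beta pair, 58.7% of the Hbb-bs words occur in Hbb-bt and 59.4% of the Hbb-bt words in Hbb-bs. The 117 bases before the RefSeq start that could be lined up without gaps are identical for Hba-a1 and Hba-a2, while 88 of 119 are for Hbb-bs and Hbb-bt. With the counts of each pair summed, the alpha log2 fold change was -2.59 ± 1.19 and the beta one -2.60 ± 1.10, or -1.08 ± 0.52 and -1.32 ± 0.57 without wt_284. The ratio of alpha to beta counts was 1.12, 1.54 and 1.14 in ko_306, ko_314 and ko_320, against 1.28, 1.33, 0.931 and 0.833 in wt_284, wt_290, wt_310 and wt_312. It overlapped between groups, and wt_284 lay within the range of the other libraries. The embryonic genes Hbb-y and Hbb-bh1 had 0 counts in all 7 libraries and Hba-x had 1 count, in wt_290.

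Among haem pathway genes, Alas2 and Tspo2 are the erythroid forms. Alas2 (chromosome X, 150547375 to 150570638, plus strand) encodes the erythroid form of the first enzyme of haem synthesis. It had 10.4, 12.5 and 9.55 CPM in the KO libraries, against 224, 30.6, 41.4 and 5.27 CPM in the WT libraries. The KO libraries were alike, wt_312 lay below them and the other WT libraries above. Its log2 fold change was -2.80 ± 1.32 (SE), or -1.25 ± 0.60 without wt_284.

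Cpox, Fech and Urod, other enzymes of the same pathway, had log2 fold changes closer to 0 than that of Alas2. Of these enzymes Fech was counted among the late members. Cpox, coproporphyrinogen oxidase, had 42.5, 22.5 and 24.6 CPM in KO and 147, 61.9, 63.0 and 39.0 CPM in WT. ko_306 was slightly above wt_312, and the other WT libraries were above every KO library. Cpox had the smallest unadjusted edgeR p of the members with all libraries, 0.0223, at -1.38 ± 0.48. Without wt_284 Cpox had an unadjusted edgeR p of 0.00672 at -0.86 ± 0.28, and Hbb-bt had the smallest, 0.00401. Fech, which inserts iron into the porphyrin ring, had 50.6, 62.2 and 56.3 CPM in KO and 168, 68.5, 107 and 56.9 CPM in WT, with -0.83 ± 0.35 (-0.45 ± 0.22 without wt_284). Urod, uroporphyrinogen decarboxylase, had 38.3 to 57.1 CPM in KO and 33.4 to 84.6 CPM in WT, with a log2 fold change of -0.27 ± 0.28 that was 0.00 ± 0.24 without wt_284.

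Blvrb, a flavin and biliverdin reductase abundant in red cells, had 19.8, 8.80 and 21.5 CPM in the KO libraries and 76.6, 23.1, 27.2 and 23.2 CPM in the WT libraries. The groups did not overlap, although ko_320 and wt_290 were close, and the log2 fold change was -1.16 ± 0.51 or -0.54 ± 0.34 without wt_284. A fit with no filter on low counts called Fech, Cpox and Blvrb, with adjusted edgeR p of 0.0265, 0.0293 and 0.0337. That fit called 0.272% of 29739 genes with any count. Over the other alternatives the smallest adjusted p of these 3 genes were 0.687, 0.264 and 0.687, and the largest 1.000. Tspo2, a translocator protein of erythroblasts that binds cholesterol, had 0.775, 2.98 and 0 CPM in KO and 16.1, 2.46, 1.68 and 0 CPM in WT. Zero counts are compatible with levels up to 0.382 CPM in ko_320 and 0.385 CPM in wt_312, from counting error alone. The log2 fold change of Tspo2 was -2.03 ± 1.68, and -0.17 ± 1.46 without wt_284.

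The membrane skeleton genes had the most negative role median, -2.84, or -1.63 without wt_284. Slc4a1 (chromosome 11, 102348824 to 102366203, minus strand) encodes band 3, the anion exchanger that anchors the skeleton. It had 43.9, 8.05 and 17.4 CPM in the KO libraries, against 604, 106, 127 and 9.25 CPM in the WT libraries. wt_312 was close to ko_314, the lowest library, and the other WT libraries were at least 2 times the highest KO library. The log2 fold change was -3.17 ± 1.52 (SE), or -1.78 ± 1.20 without wt_284, and -3.54 without wt_312.

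Sptb, the beta spectrin of red cells, had 33.6, 5.82 and 16.4 CPM in KO and 415, 88.9, 107 and 13.7 CPM in WT. Ank1, the ankyrin that ties spectrin to band 3, had 24.7, 5.22 and 16.6 CPM in KO and 255, 62.5, 60.8 and 8.99 CPM in WT. Both had the order of Slc4a1 within KO, with ko_306 the highest and ko_314 the lowest, and wt_312 inside the KO range. Their log2 fold changes were -3.05 ± 1.33 and -2.62 ± 1.25, or -1.88 ± 1.04 and -1.49 ± 0.93 without wt_284. Epb42, protein 4.2, had 6.46, 6.11 and 0.637 CPM in KO and 75.0, 17.5, 12.7 and 1.67 CPM in WT. Here ko_320 instead of ko_314 was the lowest KO library, on 5 counts, and the value in wt_312 rests on 13 counts. The log2 fold change of Epb42 was -2.59 ± 1.41, or -1.26 ± 0.88 without wt_284.

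Blood group and surface genes showed 2 patterns. Ermap, the Scianna blood group protein, had 10.7, 8.95 and 3.57 CPM in KO and 157, 32.3, 46.5 and 5.27 CPM in WT, and Aqp1, the water channel of the Colton blood group, had 19.3, 14.8 and 15.4 CPM in KO and 112, 39.7, 34.4 and 10.5 CPM in WT. In both, wt_284, wt_290 and wt_310 lay above every KO library and wt_312 did not. The log2 fold changes were -2.95 ± 1.22 for Ermap and -1.57 ± 0.75 for Aqp1, or -1.84 ± 0.78 and -0.77 ± 0.40 without wt_284. Rhd, which encodes the Rh antigen carrier, had 2.76, 0.149 and 3.69 CPM in KO and 57.1, 10.8, 7.49 and 0 CPM in WT, at -3.07 ± 1.87, or -1.45 ± 1.37 without wt_284.

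Rhag and Icam4 had KO levels like those of the WT libraries other than wt_284. Rhag, the glycoprotein partner of the Rh antigens and an ammonia channel, had 6.03, 2.54 and 10.6 CPM in KO and 29.5, 9.73, 6.88 and 0.128 CPM in WT, the last from 1 count. Icam4, the Landsteiner-Wiener blood group adhesion molecule, had 2.84, 0.597 and 1.53 CPM in KO and 6.42, 2.27, 0.764 and 0 CPM in WT, and the 0 in wt_312 allows up to 0.385 CPM. With Klf1 they were the 3 members in which ko_320 was above at least 2 of wt_290, wt_310 and wt_312 (background 49.4%). Their log2 fold changes of -0.85 ± 1.23 and -0.50 ± 1.21 turned to 0.19 ± 0.98 and 0.70 ± 1.28 without wt_284.

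The 2 carbonic anhydrase genes, neighbours on chromosome 3, differed in level and in spread. Car1 (14766216 to 14808368, minus strand), a marker of committed erythroid progenitors, had 3.62, 7.31 and 7.51 CPM in the KO libraries and 43.4, 21.3, 14.4 and 1.80 CPM in the WT libraries. wt_312 was below the KO libraries and the other WT libraries above them, with a log2 fold change of -1.73 ± 0.90, or -1.03 ± 0.68 without wt_284. Car2 (14886273 to 14900770, plus strand), which is used by many cell types, had 501, 470 and 575 CPM in KO and 632, 648, 584 and 370 CPM in WT. Its log2 fold change was -0.12 ± 0.18, with a 95% interval from -0.52 to 0.28, or -0.05 ± 0.18 without wt_284.

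Per kilobase of annotated exon, Car2 was the most abundant member in the KO libraries and in wt_312, and Hba-a2 in wt_284, wt_290 and wt_310. Car2 stood at 213 CPM per kb in KO and 231 CPM per kb in WT, Hba-a2 at 152 and 935, and Hbb-bs at 94.0 and 593. Slc4a1 stood at 4.73 CPM per kb in KO and 43.2 in WT, and Klf1 at 3.94 and 8.16. Lengths are the union of all GENCODE M21 exons of a gene, so levels of genes with long annotated forms are understated.

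Lists of other genes of the same pathways had mostly negative log2 fold changes for haem and membrane genes, but not for regulators. Among 17 other haem and iron genes 0 were called, and the log2 fold change was below 0 for 15, with a median of -0.47, or -0.12 without wt_284. Named by the size of their p, Abcb10, a mitochondrial transporter of haem-making cells, stood at -1.41 ± 0.51 on the log2 scale, against -0.70 when wt_284 was left out. Alas1, the general form of the first enzyme of haem synthesis, had 13.0 to 28.0 CPM in KO and 29.0 to 84.4 CPM in WT. Of 16 other membrane and enzyme genes of red cells, 0 were called and 15 were negative, with a median of -0.98, or -0.36 without wt_284. Mfsd2b, a sphingosine-1-phosphate exporter of red cells, had 10.7 to 11.5 CPM in KO and 30.3, 22.0, 25.1 and 12.1 CPM in WT. These groups did not overlap, and the log2 fold change was -1.02 ± 0.34, or -0.83 without wt_284. Bpgm, which makes the 2,3-bisphosphoglycerate of red cells, had a log2 fold change of -0.96 ± 0.35, or -0.52 without wt_284. Cd36, a fatty acid receptor, had -2.05 ± 0.84, or -0.65 without wt_284, with 1.40 to 2.98 CPM in KO and 2.75 to 25.6 CPM in WT. Each of these genes had an adjusted edgeR p of 0.992.

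Transcription factors and signalling genes that erythroid cells share with stem cells did not follow the members. Of 16 other erythroid regulators 0 were called and the log2 fold change was above 0 for 9 and below 0 for 7, with a median of 0.05 with and without wt_284. Gata2, the GATA factor of stem cells, had 297, 323 and 277 CPM in KO and 210, 280, 269 and 262 CPM in WT, at 0.23 ± 0.14, or 0.15 without wt_284. Jak2, the kinase that erythropoietin and thrombopoietin receptors use, had -0.19 ± 0.14, or -0.20 without wt_284, and Cbfa2t3, a corepressor of the GATA1 complex, had 0.17 ± 0.14, or 0.16 without wt_284. wt_284 was the highest library for 3 of these 16 genes and for 14 of 17 in the haem and iron list, with a background of 23.1% of all genes.

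Markers of neutrophils and monocytes, and of mast cells and basophils, were highest in wt_284, as the late erythroid genes were, whereas megakaryocyte markers were not. The summed level of 16 neutrophil and monocyte markers came to 680, 202 and 197 CPM in ko_306, ko_314 and ko_320, against 14706, 1282, 1289 and 252 CPM in wt_284, wt_290, wt_310 and wt_312. The summed level of 14 late erythroid members was 479, 266 and 404 CPM in the same KO libraries, against 6106, 937, 1366 and 358 CPM in the same WT libraries. Both sums were highest in wt_284, next in wt_310 and wt_290, and wt_312 lay inside the KO range in both. Of the neutrophil and monocyte markers 13 to 16 had counts in KO libraries and 15 to 16 in WT libraries. Every KO library lay below every WT library for 3 of these 16 markers (background 2.43%). Mpo, the granule enzyme myeloperoxidase, was among them, with 5.42 to 8.95 CPM in KO and 27.2 to 1084 CPM in WT. Its log2 fold change was -5.51 ± 1.66 (SE) at an adjusted edgeR p of 0.992, or -3.76 without wt_284.

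Mast cell and basophil markers summed to 0.746 to 12.6 CPM in KO and 10.5 to 214 CPM in WT, with 1 to 6 of 10 genes with counts in KO and 4 to 7 in WT, and Cma1, Tpsb2 and Mcpt4 at 0 in every library. The stem cell markers were lowest in wt_284. Megakaryocyte markers, the closest sister lineage, summed to 268 to 353 CPM in KO and 222 to 417 CPM in WT. For 0 of the 8 tested was wt_284 the highest library (background 23.1%). The part of cells other than stem cells in the erythroid values was not tested.

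**Figure D4:**
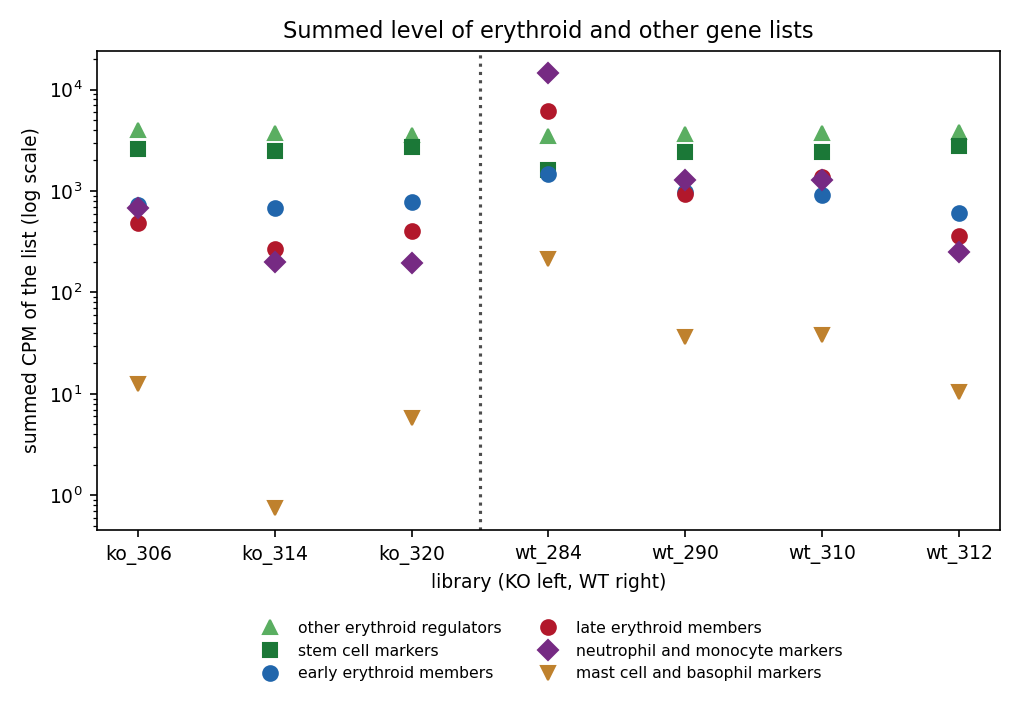
Summed CPM (y axis, log scale) of the late and early erythroid members, other erythroid regulators and markers of stem cells, neutrophils and monocytes, and mast cells and basophils in each library (x axis, KO left, WT right). The late erythroid sum and the neutrophil and monocyte sum were highest in wt_284, at 6106 and 14706 CPM, where the stem cell sum was lowest, at 1616 CPM.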

How the data were processed

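RNA-seq of sorted LT-HSCs from 3 KO and 4 WT mice was analysed from the deposited table. Its values are the authors' estimated counts for each gene, whole numbers without scaling. Trimming and quantification tools are cutadapt and Salmon per the submitters' processing notes, with versions and annotation not given in the sources used here. Libraries were made with a stranded total RNA kit for small inputs, per the labels' protocols, although the molecule label reads polyA RNA. Every column, 7 in all, was tied to a mouse through its name. Of the gene identifiers 98.1% matched GENCODE M21 (GRCm38) with version; Klf1 and Ermap matched without it.

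KO was set against WT in edgeR 4.0.16 under R 4.3.3, with filterByExpr, TMM and the robust quasi-likelihood test, with Benjamini-Hochberg adjustment over all 15372 tested genes and a threshold of 0.05. SEs were derived from the log2 fold change and its F statistic. Levels use log2 CPM with a prior count of 2. p-values measure the spread between mice; litter and sort day are not labelled. The fit was tested on simulated data. The members and lists were chosen with earlier results of these data known; the text names all members, Emcn and up to 3 genes of each other list with the smallest p, of which 1 is not reported here. Of the lists of other cells, some are given in the closing section. Alternatives were DESeq2 1.42.0, limma-voom with quality weights for each library (limma 3.58.1), other normalizations and filters, and a fit that is not robust. Further ones were leaving out each mouse, mice numbered above 300, another prior count and summed globin pairs. Matching by symbol only, and the late minus early difference with fewer genes, were added after seeing the data. Intervals and limits from 3 counts cover counting error only.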

Additional observations from a re-analysis of the deposited data

Results flagged for a closer look

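Within the 4 WT libraries wt_284 stood apart by Dixon's criterion for the gap to the next library, for 5 of 29 members. The nominal rate of the criterion, about 1 group of 20, is for any library at either end and not for wt_284 alone. That rate is therefore not a chance rate for these 5 members, and the rates over all genes are given for comparison. Over all genes tested wt_284 was the highest WT library and stood apart in 3.57%, and any WT library stood apart at either end in 8.7%. The values in wt_284 were 501 CPM for Hba-a1, 1843 CPM for Hba-a2, 224 CPM for Alas2, 16.1 CPM for Tspo2 and 76.6 CPM for Blvrb. The gap was 0.878, 0.860, 0.835, 0.848 and 0.924 of the range in these genes.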

How the results depend on the processing

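The direction and side of the threshold of the members' log2 fold changes stayed in 422 values from the alternatives, reversed in 14 and passed the threshold in 3. Called genes numbered 1 with all libraries, 81 with no filter (3 of them members), 12 with DESeq2, 0 with limma-voom, 7 with mice above 300, and 1 to 3 when each mouse was left out. Members called numbered 0 in every other alternative. Members with an unadjusted p under 0.05, all lower in KO, numbered 5 in edgeR (background 1.99%) and 16 in the fit that is not robust (background 2.97%). They numbered 18 with DESeq2 (background 2.5%) and 12 with limma-voom (background 1.49%). Over the fits that each left out 1 mouse, signs turned for Klf1 (-1.90 to 0.31), Rhag (-1.38 to 0.19), Icam4 (-1.15 to 0.70), Urod (-0.43 to 0.0015) and Gfi1b (-0.22 to 0.35). With mice above 300 they turned for Klf1 (1.08), Car2 (0.12), Rhag (0.87), Tspo2 (0.57), Icam4 (2.12) and Urod (0.12), and with limma-voom for Gfi1b (-0.043) and Icam4 (0.12); the cause was not tested. The KO minus WT level differences stayed negative: -1.78 to -0.60 for all members, -1.09 to -0.28 for early, -2.55 to -0.92 for late, and -1.46 to -0.64 for late minus early, with each mouse left out. With mice above 300 they were -0.29, -0.02, -0.55 and -0.53. No paired analysis was possible because the mouse numbers are unique to each library. Few counts limit Tspo2, Icam4, Rhag, Rhd, Klf1 and Epb42.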

Other observations

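The counts of membrane genes per globin count differed between libraries. Slc4a1 had 14.8, 5.10 and 6.47 counts per 100 adult globin counts in ko_306, ko_314 and ko_320, against 14.4, 20.0, 14.6 and 3.57 in wt_284, wt_290, wt_310 and wt_312. ko_306 was thus at the level of wt_284 and wt_310, while wt_312 was below every KO library. Alas2 had 3.52, 7.93 and 3.54 counts per 100 globin counts in the KO libraries and 5.36, 5.78, 4.75 and 2.03 in the WT libraries, with ko_314 the highest.

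B and T cell markers summed to 11.4 to 16.2 CPM in KO and 12.8 to 142 CPM in WT, the highest again in wt_284. Endothelial and stromal markers summed to 168 to 175 CPM in KO and 143 to 181 CPM in WT, and wt_284 was the lowest.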
